A study of Mus musculus with 30 samples.

Results

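The 45 genes described here are a named list of lysosomal enzymes and membrane proteins: 9 membrane and glycocalyx proteins, 7 peptidases, 7 glycosidases, 6 enzymes of glycosaminoglycan breakdown, 8 genes of lipid breakdown with their activators and progranulin, 3 MiT/TFE transcription factors and 5 subunits or accessory proteins of the proton pump. They were matched by symbol to a table of 47643 genes, and all 45 were found and all 45 passed the filter on low values that left 16897 genes for testing. The table gives FPKM (sequenced fragments scaled to transcript length and to the mapped fragments of the library) in 30 libraries of microglia, the resident macrophages of the brain, each from a separate numbered mouse aged 3 months and sorted as CD11b-positive cells with medium CD45. Homo mice were Bin1 flox/flox::Cx3Cr1-Cre+ (5 males, 5 females) and Het mice were Bin1 wt/flox::Cx3Cr1-Cre+ (6 males, 5 females). WT mice had no Cre (5 males, 4 females). The study's figure legend gives them as Bin1 wt/flox, the title of its supplementary dataset as Bin1 wt, and the labels say only WT. By the legend, a floxed Bin1 allele was shared by every group, which the other sources do not state. The Cre is knocked into Cx3cr1, a myeloid gene, so Cre and the loss of one intact Cx3cr1 copy came together in Het and Homo, and no group carried Cre alone. The growth protocol in the labels conflicts with this: it describes microglia cultured from newborn pups and treated with Tau, LPS and ATP, and the study's methods for sorted cells, together with the numbered mice in the titles, were followed here. The question was how loss of Bin1, an endocytic membrane-bending protein tied to Alzheimer's disease risk, changed microglial gene expression in each sex.

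Lysosomes are acidic organelles in which cathepsins cut proteins, glycosidases trim sugars from glycoproteins and glycolipids, and lipases and ceramidases take lipids apart. The V-ATPase pumps in protons, the LAMP proteins line the membrane, and TFEB, TFE3 and MITF switch on many lysosomal genes through a short palindrome in their promoters called the CLEAR element. Microglia are rich in lysosomes because they take up debris and aggregates, and inherited loss of many of these enzymes causes storage disease.

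The promoters are shown for the CLEAR-type palindrome, while the list itself is defined by function. The palindrome is known as an element of lysosomal gene promoters. Its share in a list of lysosomal genes is therefore a description and not an independent result. Of the 45 genes, 39 had an entry among RefSeq promoters (250 bases before to 50 after a gene's start, GRCm38.p6); Asah1, Atp6v1h, Ctsb, Ctsh, Galns and Npc1 had none. The palindrome TCACGTGA, searched on both strands, stood in 7 of the 39 genes (17.9%), against 304 of 27025 genes with a promoter (1.12%). Its inner hexamer CACGTG, which every TCACGTGA holds, stood in 12 of the 39 (30.8%), against 8.09% of all genes. The windows of the 7 genes that hold it follow, read 5′ to 3′ on the gene's own strand with the palindrome in capitals. Ctsa, a serine carboxypeptidase, and Gla, the alpha-galactosidase, held 2 copies each.
Atp6v0d1: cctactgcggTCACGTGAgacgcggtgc
Atp6v1a: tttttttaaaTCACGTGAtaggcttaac
Cln3: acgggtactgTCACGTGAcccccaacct
Ctsa: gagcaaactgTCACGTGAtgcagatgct
Ctsa: atgcagatgcTCACGTGAccagagctac
Ctsd: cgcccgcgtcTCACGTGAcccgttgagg
Gla: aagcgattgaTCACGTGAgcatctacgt
Gla: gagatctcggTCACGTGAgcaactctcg
Mcoln1: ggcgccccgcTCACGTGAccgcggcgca

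In GRCm38.p6 the windows lie, in the same order, at chr8:105566051-105566078 (minus strand) for Atp6v0d1, chr16:44139374-44139401 (minus strand) for Atp6v1a, chr7:126583341-126583368 (minus strand) for Cln3, chr2:164833750-164833777 (plus strand) for Ctsa, chr2:164833767-164833794 (plus strand) for Ctsa, chr7:142387909-142387936 (minus strand) for Ctsd, chrX:134601216-134601243 (minus strand) for Gla, chrX:134601183-134601210 (minus strand) for Gla and chr8:3500463-3500490 (plus strand) for Mcoln1. Ctsd and Mcoln1 are shown in full, Ctsd because it had the highest level of the 45 genes and Mcoln1 because it differed with mouse number in the opposite direction to most of the others, as described below. The Ctsd promoter is chr7:142387778-142388077 (minus strand) and that of Mcoln1 is chr8:3500269-3500568 (plus strand), with the palindrome in capitals.
Ctsd: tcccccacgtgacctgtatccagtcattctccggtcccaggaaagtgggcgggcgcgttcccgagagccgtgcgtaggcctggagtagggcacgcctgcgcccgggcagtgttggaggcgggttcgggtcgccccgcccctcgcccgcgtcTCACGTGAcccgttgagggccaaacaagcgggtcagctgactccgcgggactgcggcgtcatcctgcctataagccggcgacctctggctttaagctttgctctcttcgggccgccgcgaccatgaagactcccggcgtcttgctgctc
Mcoln1: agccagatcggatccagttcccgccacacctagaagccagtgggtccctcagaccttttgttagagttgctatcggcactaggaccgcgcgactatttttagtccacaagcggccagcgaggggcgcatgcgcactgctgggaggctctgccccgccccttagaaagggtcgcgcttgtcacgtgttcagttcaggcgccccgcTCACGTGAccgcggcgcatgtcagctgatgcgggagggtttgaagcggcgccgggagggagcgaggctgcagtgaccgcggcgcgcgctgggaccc

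The labels were checked first. Bin1 averaged 258.3 ± 21.4 FPKM (SD, n = 5) in male WT and 253 ± 12.5 (n = 4) in female WT, and lay between 39.5 and 55.6 in the 10 Homo libraries. The libraries labelled Het-F-0206 (42.7 FPKM) and Het-M-0199 (51.8 FPKM) lay within that range, while the other 9 Het libraries did not, and Cx3cr1 was 13.9 FPKM in Het-F-0206 against 610.0 to 2344 in the other 29 libraries. Without these 2 libraries the counts of 0 of 45 given below for genotypes and sexes stayed at 0. The 8 microglial markers, all of them present, summed to 16045 to 24295 FPKM, 7 border-macrophage markers to 11.9 to 47.0 and 9 neutrophil markers to 0.0341 to 350.1. Relative sequencing depth, read from the steps between low FPKM values, ranged from 0.669 to 1.41 of the typical library, and read counts per library are not analysed here. 6 libraries carried mouse numbers below 150, called early here: 2 male Het, 3 male Homo, 1 female WT and 0 male WT.

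Lysosomal genes were among the highest expressed in these cells. Levels can be set side by side between genes because FPKM is per transcript length. Ctsd, the aspartyl protease cathepsin D (ENSMUSG00000007891, chr7:142375911-142388038, minus strand, GRCm38), averaged 9206 FPKM over the 30 libraries and ranked 2 of 16897. Its level was 9159 ± 409 FPKM (SD, n = 5) for WT males and 10141 ± 312 FPKM (SD, n = 4) for WT females. Ctss, the cysteine protease cathepsin S, followed at 5129 FPKM (rank 7), and Laptm5, a lysosomal membrane protein of blood-lineage cells, at 2194 FPKM (rank 17). Of the 45, 15 were in the top 1% of tested genes, 31 in the top 10%, and 22 averaged above 100 FPKM.

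The roles differed in level. The 7 peptidases ranged from 160.4 FPKM (Tpp1, tripeptidyl peptidase) to Ctsd, with Ctsz, Ctsb, Ctsa and Ctsh between 678 and 1249. Among membrane proteins, Cd68, a heavily glycosylated macrophage marker, averaged 806 FPKM, Lamp1 709 and Lamp2 401, whereas Npc1, the cholesterol exporter, averaged 34.5. In the lipid group, Grn (progranulin) averaged 1094 FPKM and Psap, the precursor of the saposin activators, 1052, while Smpd1, acid sphingomyelinase, averaged 37.0. Glycosidases ran from Hexa, the alpha subunit of beta-hexosaminidase, at 679 FPKM to Gla at 1.65, the lowest of the 45 (rank 10742). Gla was 1.64 ± 0.494 FPKM (SD, n = 5) for WT males and 1.75 ± 0.0898 FPKM (SD, n = 4) for WT females. The glycosaminoglycan enzymes ranged from 7.01 (Sgsh) to 166 FPKM (Gusb, beta-glucuronidase). Of the factors, Tfe3 averaged 76.3, Tfeb 23.7 and Mitf 5.90 FPKM, and the pump group ranged from Atp6v1a, its catalytic A subunit, at 21.5 to Atp6ap1, an accessory protein, at 311.

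**Figure D1:**
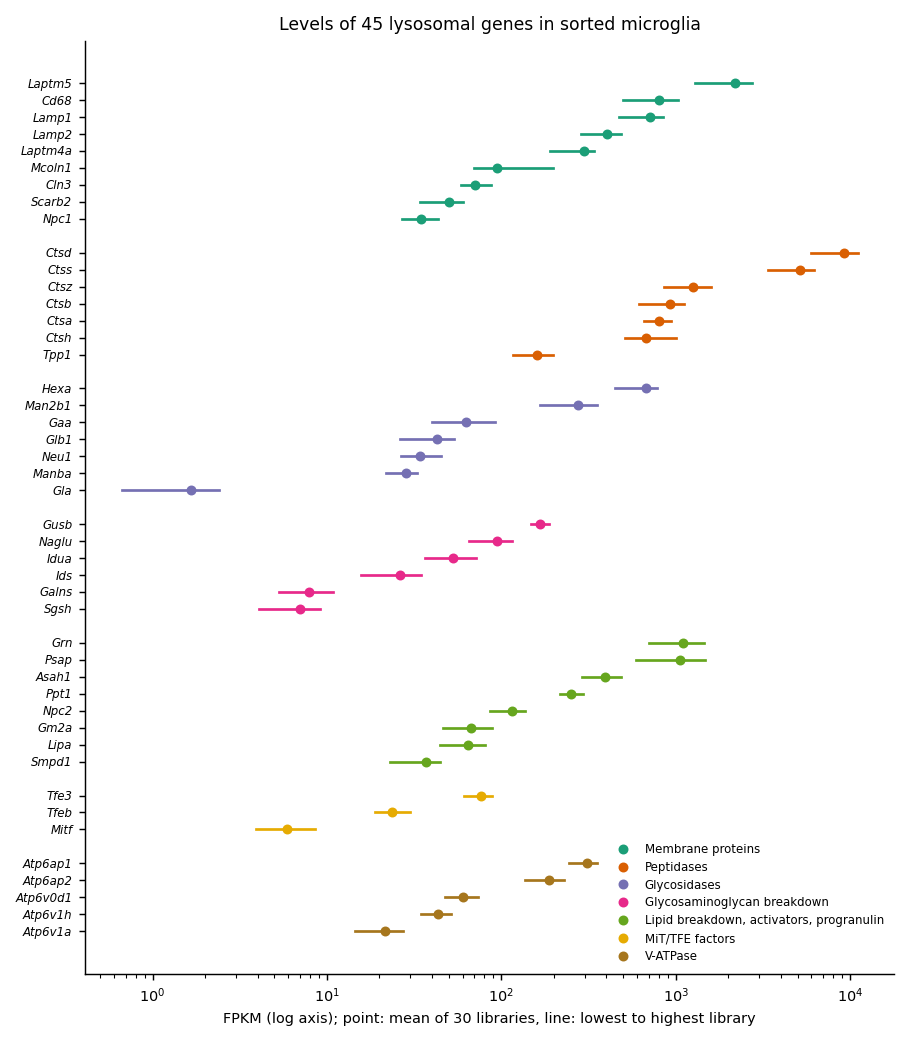
Level of each of the 45 lysosomal genes in FPKM on a log axis, ordered by role and then by mean. Points are means over 30 libraries and lines run from the lowest to the highest library. Ctsd sits at 9206 FPKM and Gla at 1.65.

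Together the 45 genes held 5.90 ± 0.406% (SD, n = 5) of all summed FPKM in WT males. The share for Het males was 5.30 ± 1.16% (SD, n = 6), and Homo males had 5.03 ± 0.869% (SD, n = 5). The female groups had 6.15 ± 0.232% (SD, n = 4) for WT, 6.34 ± 0.377% (SD, n = 5) for Het, and 6.28 ± 0.261% (SD, n = 5) for Homo. Ctsd alone made up 1.91% of summed FPKM in male WT and 2.14% in female WT. The female groups lay close together and the male Cre+ groups were spread more widely. In sorted bulk RNA, fewer cells of a type and less RNA per cell cannot be told apart.

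In males, none of the 45 genes passed the test in Homo against WT, although most estimates lay on the lower side. By limma across all genes with Benjamini-Hochberg adjustment, 0 of 45 had an adjusted p below 0.05, against a background of 2.82% of all tested genes. At an unadjusted p below 0.05 there were 10 (2 with higher and 8 with lower estimates), which is 22.2% of the list against 22.5% of all genes, so the list was called no more often than the background. The log2 fold change was below 0 for 35 of 45 genes, with a median of -0.26 against 0.03 over all genes. Estimates ran from -0.56 (Sgsh) to 0.53 (Mcoln1), and the 95% intervals of the 45 genes reached from -0.95 to 0.91. The result turned on single libraries: without Homo-M-0189, 5 genes passed (Mcoln1 higher; Sgsh, Scarb2, Smpd1 and Atp6ap1 lower), and without WT-M-0202, Sgsh passed. Over all genes 8.13% passed without Homo-M-0189, against 11.1% of the 45, and 5.79% without WT-M-0202, against 2.22%. Among libraries with late mouse numbers alone (2 Homo, 5 WT), the median was 0.01 and 0 genes passed. With 2 Homo libraries, that count is not a result on its own. The 9 neutrophil markers summed to 44.3 to 350.1 FPKM in male WT and 0.0341 to 80.8 in male Homo, where 2 of the 9 were at 0 in every library, and their part in the result was not tested.

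By role, the male Homo medians were -0.28 for the membrane proteins (6 of 9 below 0), -0.29 for the peptidases (6 of 7), -0.30 for the glycosidases (6 of 7), -0.13 for the glycosaminoglycan enzymes (4 of 6), -0.26 for the lipid group (6 of 8), -0.05 for the transcription factors (2 of 3) and -0.21 for the pump group (5 of 5). Cathepsin estimates were -0.29 for Ctsd, -0.26 for Ctss, -0.31 for Ctsz, -0.31 for Ctsb and 0.08 for Ctsh, with intervals that all included 0. Tfeb stood at -0.29 (SE 0.13, adjusted p = 0.179) and Grn at -0.40 (SE 0.18, adjusted p = 0.197).

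**Figure D2:**
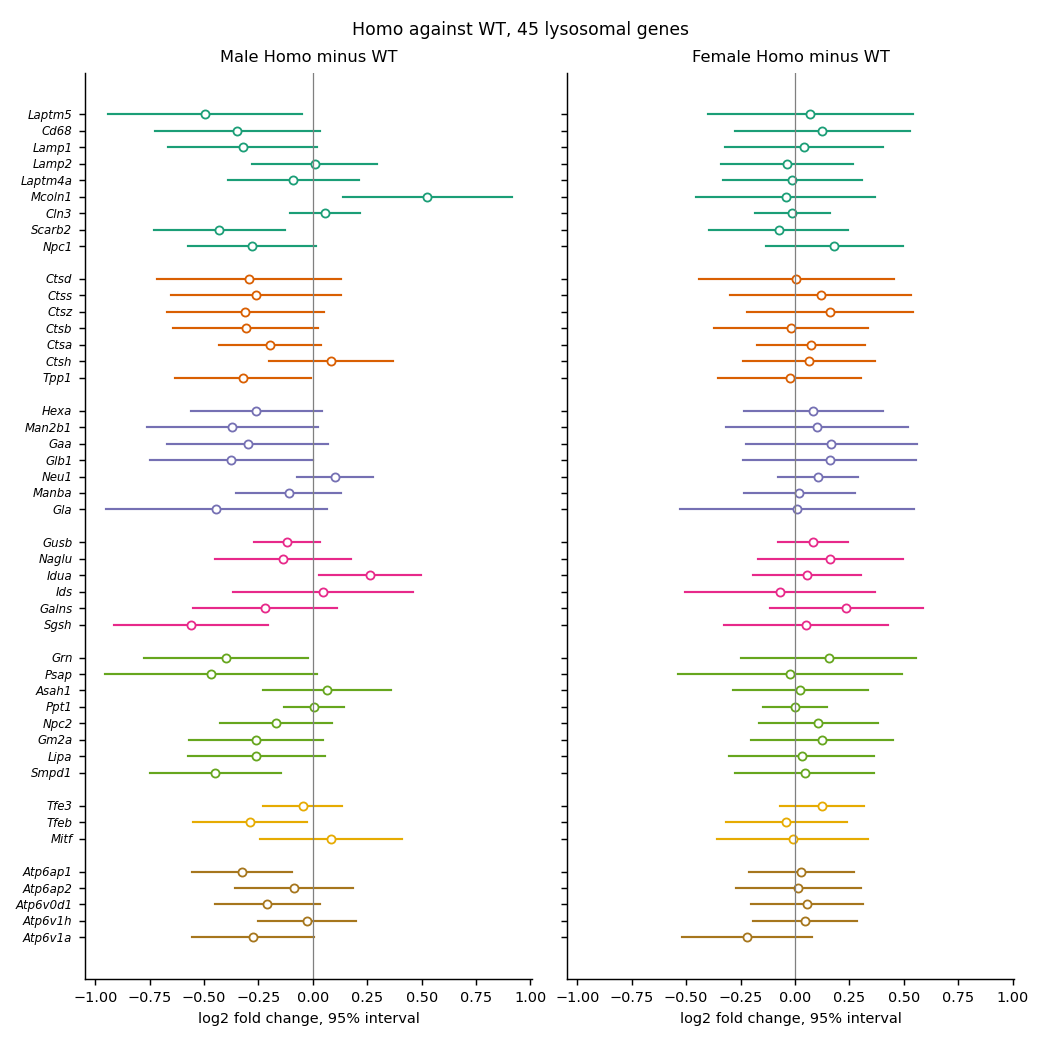
Log2 fold change of Homo against WT with its 95% interval from limma for each of the 45 genes, in males (left) and females (right), coloured and ordered by role; open points did not pass the adjusted threshold, and none did. Male estimates lie mostly to the left of 0 (35 of 45) and female estimates mostly to the right (33 of 45).

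Of the 8 genes with the smallest unadjusted p against WT, the 7 from male Homo are given library by library, in order of mouse number and with positions in GRCm38, and the eighth, Atp6v1a, stands with the male Het comparison. Sgsh (ENSMUSG00000005043, chr11:119343425-119355536, the heparan N-sulfatase) measured 8.25, 8.91, 7.85, 5.43 and 8.64 FPKM in the 5 male WT libraries and 5.17, 5.77, 5.09, 5.76 and 5.73 in the 5 male Homo libraries. WT-M-0202 lay within the Homo range, and the other 4 WT libraries lay above every Homo library. The log2 fold change was -0.56 (SE 0.17, adjusted p = 0.0664), and -0.42 among late numbers. Smpd1 (ENSMUSG00000037049, chr7:105554360-105558389, which cleaves sphingomyelin to ceramide) measured 41.6, 40.9, 39.6, 36.4 and 34.6 FPKM in the 5 male WT libraries and 25.4, 28.8, 29.0, 34.0 and 33.0 in the 5 male Homo libraries. The 3 early Homo libraries were the lowest, the 2 late ones lay just under the lowest WT value, and the groups overlapped on the scaled values used for testing. Its estimate was -0.45 (SE 0.15, adjusted p = 0.0797), and -0.21 among late numbers. Scarb2 (ENSMUSG00000029426, chr5:92441314-92506833, LIMP-2, the receptor that carries glucocerebrosidase to lysosomes) measured 53.3, 51.3, 56.2, 49.9 and 55.3 FPKM in the 5 male WT libraries and 34.0, 42.4, 35.7, 55.8 and 44.3 in the 5 male Homo libraries. Homo-M-0189 lay within the WT range, and the other 4 Homo libraries lay below every WT library. The log2 fold change was -0.43 (SE 0.15, adjusted p = 0.0895), and -0.10 among late numbers.

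Atp6ap1 (ENSMUSG00000019087, chrX:74297097-74304721, an accessory protein of the proton pump) measured 333, 336, 308, 314 and 319 FPKM in the 5 male WT libraries and 244, 282, 251, 299 and 286 in the 5 male Homo libraries. It was the single gene of the 45 whose male Homo and WT libraries did not overlap on the scaled values used for testing, which held for 4.01% of all genes. The log2 fold change was -0.33 (SE 0.11, adjusted p = 0.0902), and -0.14 among late numbers. Laptm5 (ENSMUSG00000028581, chr4:130913125-130936141, a lysosomal membrane protein) measured 2461, 2681, 2664, 1857 and 2209 FPKM in the 5 male WT libraries and 1405, 1869.8, 1369, 2298 and 2091 in the 5 male Homo libraries. The early Homo-M-0093 and Homo-M-0109 lay below every WT library, and the other 3 Homo libraries overlapped WT. On the log2 scale the estimate was -0.50 (SE 0.22, adjusted p = 0.175), and -0.11 among late numbers. Idua (ENSMUSG00000033540, chr5:108660331-108684557, alpha-L-iduronidase, which removes iduronic acid from glycosaminoglycans) measured 48.8, 48.4, 51.2, 42.9 and 36.4 FPKM in the 5 male WT libraries and 69.1, 57.8, 64.9, 45.6 and 53.2 in the 5 male Homo libraries. Homo-M-0189 lay within the WT range, and the other 4 Homo libraries lay above every WT library. On the log2 scale the estimate was 0.26 (SE 0.11, adjusted p = 0.171), and 0.12 among late numbers.

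Mcoln1 (ENSMUSG00000004567, chr8:3500457-3515232, TRPML1, the calcium channel of the lysosomal membrane) measured 74.9, 82.2, 75.0, 81.7 and 73.6 FPKM in the 5 male WT libraries and 198, 126, 143, 75.4 and 84.8 in the 5 male Homo libraries. In male Het it was 182 and 163 in the 2 early libraries and 72.3, 74.6, 119.6 and 73.5 in the 4 late ones. The 5 early libraries of both genotypes were the highest of the male libraries, followed by Het-M-0203, and the other 5 late Cre+ libraries lay in or near the WT range. The log2 fold change was 0.53 (SE 0.19, adjusted p = 0.105) in Homo and 0.38 (SE 0.18, adjusted p = 0.346) in Het, and 0.04 in Homo among late numbers. In females, Mcoln1 measured 97.9, 74.6, 76.8 and 69.3 in WT, 87.4, 90.0, 71.8, 81.3 and 81.5 in Het and 84.3, 85.2, 72.5, 70.6 and 73.0 in Homo, and the first of these, early WT-F-0122, was the highest of the 14 female libraries.

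**Figure D3:**
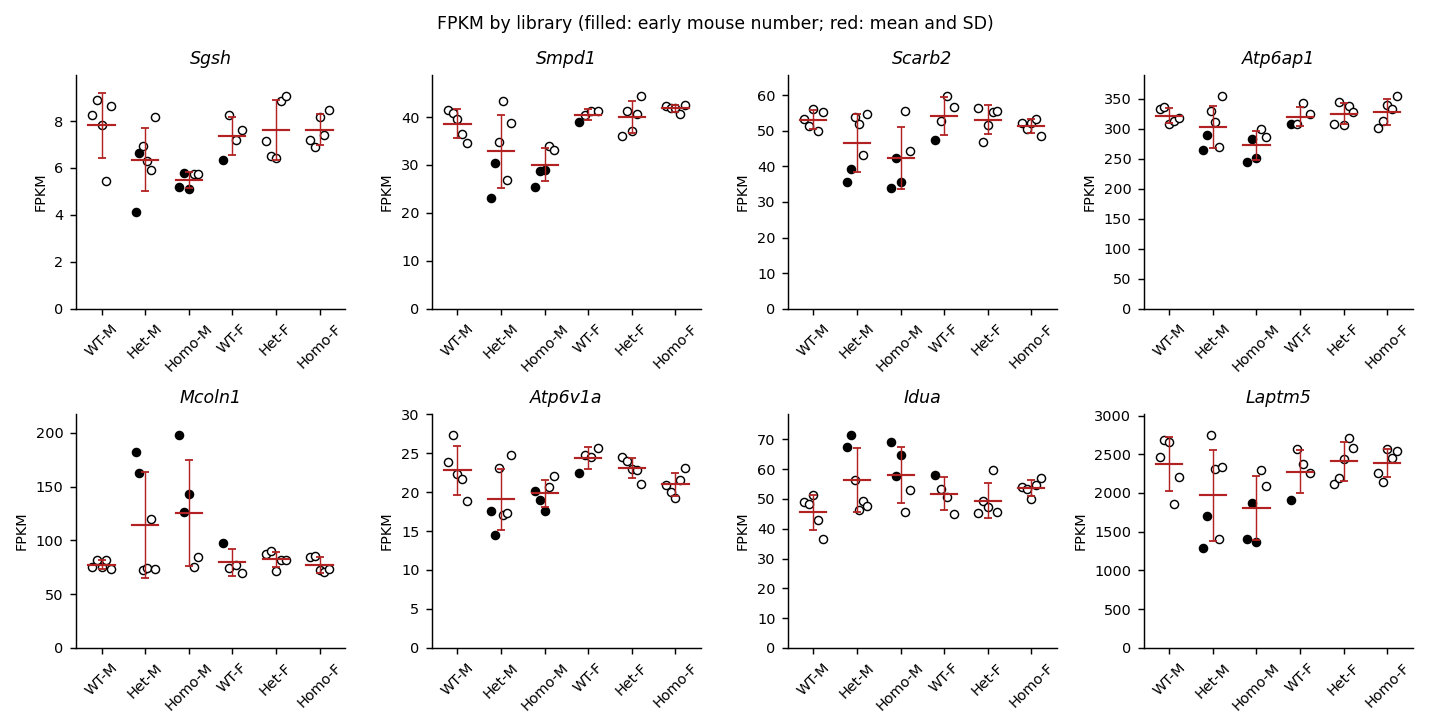
FPKM of the 8 genes with the smallest unadjusted p in each of the 30 libraries, by group; filled points are early mouse numbers, red lines are group means and bars are SD, and every axis starts at 0. Mcoln1 separates the filled male points (126 to 198 FPKM) from the open ones, of which Het-M-0203 is the highest at 119.6.

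Male Het microglia gave the same count. Against WT, 0 of 45 genes passed (background 0.172%), 6 had an unadjusted p below 0.05 (3 higher, 3 lower; 13.3% against 14.2% of all genes), and 39 of 45 estimates lay below 0 with a median of -0.15. That median was 0.02 among late mouse numbers (4 Het, 5 WT), where 20 of 45 lay below 0, -0.00484 with the mouse number range as covariate (25 of 45), and 0.06 with the lncRNA index, the level of long noncoding against protein-coding genes in a library, as covariate (12 of 45). Leaving out Het-M-0100 gave -0.05 and Het-M-0203 -0.10. Over all genes, the median log2 difference from the male WT mean ran from -0.02 (Het-M-0197) to 0.07 (Het-M-0100) in the male Het libraries. Atp6v1a (ENSMUSG00000052459, chr16:44085402-44139705) had the smallest p and measured 14.6 at the lowest, 17.5 at the median and 24.7 at the highest of the 6 male Het libraries. It measured 23.8, 27.3, 22.4, 21.7 and 18.8 FPKM in male WT, and the groups overlapped. Its log2 fold change was -0.35 (SE 0.13, adjusted p = 0.277), and -0.18 among late numbers. Neu1, the lysosomal sialidase, stood at 0.18 (SE 0.08, adjusted p = 0.327). No gene of the 45 had male Het libraries clear of WT on the scaled values, against 0.805% of all genes. Homo and Het, which differ by the second Bin1 copy and share Cre, gave 0 of 45 by limma in males (background 0%), with 0 at an unadjusted p below 0.05 against 3.85% of all genes. The male contrasts with WT share the WT libraries.

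In females, no gene of the 45 passed the test and the estimates were small, with intervals that left room for changes of moderate size. The fit pooled the spread between libraries over all 6 groups, so the male libraries also set these female intervals and p-values. The median over the 45 genes (log2 difference from the WT mean of the same sex) had an SD of 0.341 in male Het. That SD was 0.271 in male Homo and 0.0919 in male WT, against 0.0605 to 0.0685 in the female groups. In Homo against WT, 0 of 45 passed by limma (background 0.071%) and 0 had an unadjusted p below 0.05 (background 3.49%). Estimates ran from -0.22 (Atp6v1a) to 0.24 (Galns, which removes sulfate from keratan and chondroitin sulfate), with a median of 0.05 against 0.00 over all genes, 12 of 45 below 0, and 95% intervals reaching from -0.54 to 0.59. Ctsd differed by 0.01 (SE 0.22, adjusted p = 1.00) and Ctss by 0.12 (SE 0.20, adjusted p = 1.00). In Het against WT, 0 of 45 passed (background 0.136%), and Galns, at 0.38 (SE 0.17, adjusted p = 1.00), was the 1 gene with an unadjusted p below 0.05 (2.22% against 3.95%). The median was 0.06. Neu1 and Naglu, the latter an N-acetylglucosaminidase of heparan sulfate, had Homo libraries clear above WT on the scaled values, as 2.32% of all genes did in one direction or the other. Naglu and Gm2a, the GM2 ganglioside activator, had Het libraries clear above WT, likewise scaled, against 2.24% of all genes. Both female contrasts share the same 4 WT libraries. Naglu measured 85.9, 91.6, 95.8 and 93.9 FPKM in WT, 99.8, 109.1, 102, 115 and 98.5 in Het and 97.9, 106, 109.2, 96.2 and 106 in Homo, and its log2 fold changes were 0.18 (SE 0.16, adjusted p = 1.00) in Het and 0.16 (SE 0.16, adjusted p = 1.00) in Homo. Homo against Het gave 0 of 45 in females (background 0.0118%), with 0 at an unadjusted p below 0.05 (background 2.06%).

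The difference between the sexes in the Homo effect was tested directly, as male minus female, and 0 of 45 genes passed by limma (background 0%). At an unadjusted p below 0.05 there were 6 (13.3% against 9.29% of all genes), namely Sgsh, Smpd1, Atp6ap1, Npc1 and Grn with lower and Mcoln1 with higher estimates in males. The median interaction was -0.29 with 36 of 45 below 0, against 0.02 over all genes, and Mcoln1 stood at 0.57 (SE 0.28, adjusted p = 0.536). Among late mouse numbers the median interaction was -0.00308, with 23 of 45 below 0. With the mouse number range as covariate it was 0.03 (20 of 45 below 0), and with the lncRNA index -0.08 (28 of 45). For Het, 0 passed (background 0%), 1 (Npc1) had an unadjusted p below 0.05 (background 4.53%), and the median was -0.23 with 39 of 45 below 0. This median was -0.03 among late mouse numbers (27 of 45 below 0), 0.00217 with the mouse number range as covariate (22 of 45), -0.04 with the lncRNA index (29 of 45) and -0.12 without Het-M-0100. Male against female WT gave 0 of 45 (background 0.0473%), 0 at an unadjusted p below 0.05 (background 2.91%) and a median of -0.04. Of the early libraries, 5 were male Cre+ and 1 was female WT, so mouse number and these sex differences were not balanced.

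Male Cre+ libraries with early mouse numbers had lower lysosomal levels in both genotypes. Expressed as the median over the 45 genes of the log2 difference from the WT mean of the same sex, the 5 early male libraries stood at -0.62 and -0.32 in Het and -0.57, -0.21 and -0.50 in Homo. The late ones stood at 0.17, 0.10, -0.40 and 0.16 in Het and 0.03 and -0.03 in Homo. Het-M-0203 was low among the late libraries. Between 36 and 40 of the 45 genes were below the WT mean in each early male library. In early WT-F-0122 the median was -0.10, with 36 genes below, and the other 13 female libraries ranged from -0.03 to 0.14. The share of summed FPKM held by the 45 genes was 4.37 ± 0.522% (SD, n = 5) in early and 5.86 ± 0.755% (SD, n = 6) in late male Cre+ libraries.

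Other measures moved with the same libraries. The lncRNA index (mean log2 level of 526 long noncoding genes minus that of 10266 protein-coding genes) ranged from -1.86 to -1.46 in the early male Cre+ libraries and was -1.75 in Het-M-0203. It ranged from -2.55 to -2.13 in the other 5 late ones and from -2.51 to -2.11 in male WT. Relative depth was 0.669 to 0.921 in early and 0.727 (Het-M-0203) to 1.41 in late libraries. The 5 oligodendrocyte markers summed to 34.2 to 141 FPKM in early against 27.9 to 48.7 in late libraries, and the 9 neutrophil markers to 0.193 to 189.6 against 0.0341 to 13.2. Early against late sums were 2.53 to 27.9 against 1.94 to 7.87 for the 5 astrocyte markers, 20.2 to 29.7 against 12.4 to 20.5 for the 7 border-macrophage markers, 5.03 to 10.9 against 3.78 to 5.11 for the 4 monocyte markers, 3.74 to 20.1 against 4.45 to 7.56 for the 5 neuronal markers, 1.21 to 22.8 against 0.351 to 7.36 for the 4 choroid plexus markers and 6.71 to 10.7 against 9.44 to 11.6 for the 4 endothelial markers. In the late libraries 1 of the 9 neutrophil markers was at 0 throughout, and 0 of the 5 oligodendrocyte markers were. The 8 microglial markers summed to 16045 to 21832 against 18574 to 24010.1. The part of these measures in the lysosomal differences was not tested, and the fit with the lncRNA index given below cannot separate the index from mouse number.

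**Figure D4:**
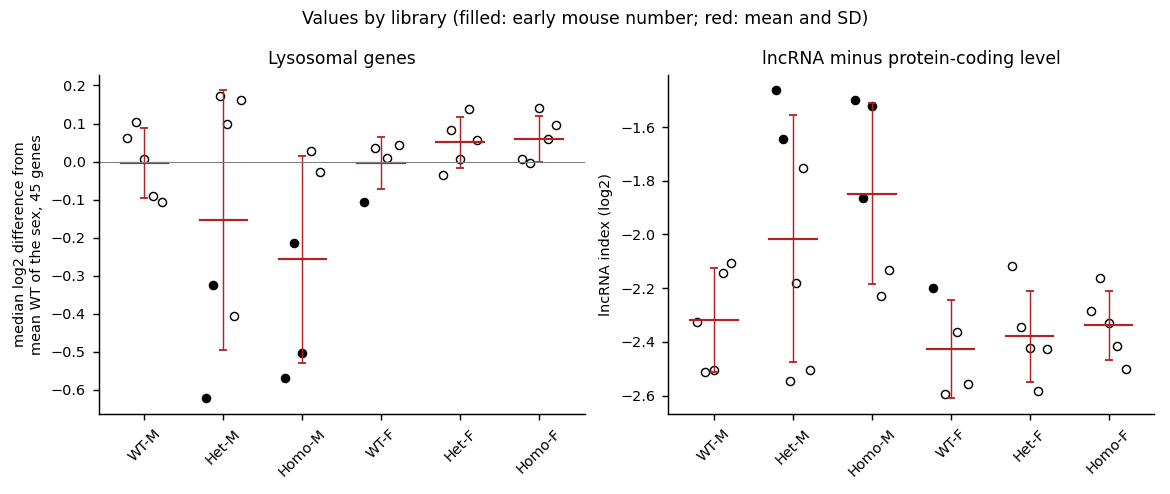
Left, the median over the 45 lysosomal genes of the log2 difference from the WT mean of the same sex, 1 point per library; right, the lncRNA index of the same libraries. Filled points are early mouse numbers, red lines and bars are group means and SD. The early male libraries sit between -0.62 and -0.21 on the left and, with Het-M-0203, above the male WT points on the right.

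When the 5 early male Cre+ libraries were compared with the 6 late ones, with genotype as a term, 18 of the 45 genes were lower and 1 was higher by limma, against a background of 5.81% lower and 8.74% higher over all genes. At an unadjusted p below 0.05 there were 35 of 45, against 33.8% of all genes. The median log2 difference was -0.50 against 0.10 over all genes, with 41 of 45 below 0. Mcoln1 was the 1 gene that rose, by 0.85 (SE 0.13, adjusted p = 0.0187). Lamp1 fell by 0.61 on the log2 scale (adjusted p = 0.0368) and Lamp2 by 0.51 (adjusted p = 0.0305), with Scarb2, Npc1 and Laptm4a among the membrane proteins at -0.58, -0.44 and -0.54. In the lipid group 5 of 8 fell: Psap by 0.83 (adjusted p = 0.0415), Gm2a, Lipa (acid lipase), Asah1 (acid ceramidase) and Npc2 (cholesterol carrier) at -0.55, -0.54, -0.50 and -0.49. Of the glycosidases 3 of 7 fell, Glb1 (beta-galactosidase) at -0.68, Man2b1 (alpha-mannosidase) at -0.65 and Hexa at -0.55. Ctsb was the 1 of 7 peptidases that passed (-0.59), although all 7 estimates lay below 0, and Ctsd stood at -0.55 (SE 0.27, adjusted p = 0.176). Naglu fell (-0.53), as did Atp6ap2, Atp6v0d1 and Atp6v1h of the pump (-0.52, -0.42 and -0.38). None of the 3 transcription factors passed, at -0.24 for Tfeb, -0.02 for Tfe3 and -0.05 for Mitf.

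These calls rested on few libraries. With the lncRNA index as a further term, 0 of 45 genes passed and the median was 0.02, while over all genes 1 passed. The index ran from -1.86 to -1.46 in early libraries and, apart from Het-M-0203 at -1.75, from -2.55 to -2.13 in late ones. It thus nearly followed the early and late split, so this fit cannot separate the index from mouse number. The count was 0 without Het-M-0100, 0 without Het-M-0108 and 0 without Homo-M-0189. It was 2 without Het-M-0210, 3 without Homo-M-0093 or Homo-M-0190, 6 without Het-M-0197, Het-M-0199 or Homo-M-0109, 24 without Homo-M-0097 and 36 without Het-M-0203. In the left-out fits the count over all genes ranged from 1 to 4826, so a count among the 45 is not a result on its own. The median over the 45 genes stayed between -0.56 and -0.42 in the same fits.

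**Figure D5:**
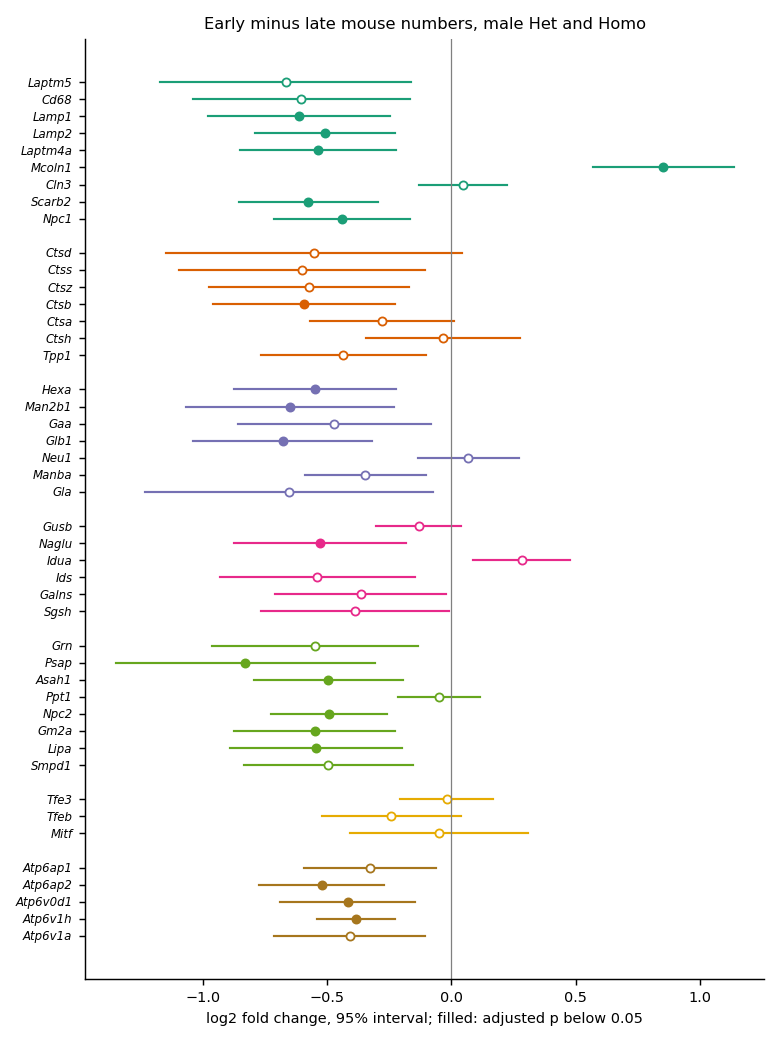
Log2 difference of the 5 early from the 6 late male Cre+ libraries for each of the 45 genes, with its 95% interval from limma and genotype as a term; filled points passed at an adjusted p below 0.05. Mcoln1 stands alone among filled points to the right of 0, at 0.85, and 18 filled points lie to the left.

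Of the 7 genes with the palindrome shown above, Mcoln1 was called higher and Atp6v0d1 lower in early libraries, while Ctsa, Ctsd, Gla and Atp6v1a had estimates of -0.28, -0.55, -0.65 and -0.41 and Cln3 of 0.05, none of which passed. Of the genes with a promoter entry but no palindrome, 13 were called lower, 17 were lower without passing and 2 were higher without passing. Genes with and without the palindrome thus lay on both sides of 0. Over all genes, 5.81% were called lower and 8.74% higher. The part of the palindrome in these differences was not tested.

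A wider list of lysosomal genes outside the 45 (82 genes: further hydrolases, membrane proteins, pump subunits, sorting factors, mTORC1 regulators and cystatins) had 77 tested members. In male Homo against WT 2 rose and 1 fell, which is 3.90% of the list against 2.82% of all genes, with a median of -0.11: Cst7, the cathepsin inhibitor cystatin F, rose by 2.08 (SE 0.21, adjusted p = 1.35e-06), Tpcn2, an endolysosomal cation channel, rose by 0.47 (SE 0.13, adjusted p = 0.0477), and Lamtor2, which anchors mTORC1 to the lysosome, changed by -0.50 (SE 0.13, adjusted p = 0.0331). Cst7 passed in all 22 alternative fits of this contrast, Tpcn2 in 9 and Lamtor2 in 11, and among late mouse numbers Tpcn2 stood at 0.25 (adjusted p = 0.805) and Lamtor2 at -0.24 (adjusted p = 0.753). Leaving out any of WT-M-0176, WT-M-0177, WT-M-0258, Homo-M-0093, Homo-M-0097 or Homo-M-0109 ended both calls, and leaving out WT-M-0178 ended that of Tpcn2. In the other 3 contrasts with WT, Cst7 was the 1 gene of the 77 that passed, at 2.02 (SE 0.20, adjusted p = 1.01e-06) in male Het, 2.48 (SE 0.22, adjusted p = 9.35e-08) in female Het and 2.31 (SE 0.22, adjusted p = 5.04e-07) in female Homo. Between Homo and Het, Cst7 differed by 0.06 (SE 0.20, adjusted p = 0.998 by limma) in males and -0.17 (SE 0.21) in females. The female value includes Het-F-0206, where Cst7 was 85.3 FPKM against 35.6 to 47.3 in the other female Het libraries. Without Het-F-0206, female Het stood at 2.28 against WT, beside 2.31 in female Homo. No group carried Cre alone, so Cre with the loss of a Cx3cr1 copy cannot be told apart from Bin1 loss here. Cst7 averaged 10.2 ± 2.13 FPKM (SD, n = 5) across WT males and 45.7 ± 7.43 (n = 5) in male Homo, and its libraries did not overlap between WT and Cre+ mice of the same sex. None of the 7 peptidases among the 45 passed in these 4 contrasts, Ctss being 5183 ± 445 FPKM (SD, n = 5) for WT males against 4649 ± 975 FPKM (SD, n = 5) for Homo males. In the early against late comparison 3 of the 77 rose (3.90%, against 8.74% of all genes) and 19 fell (24.7%, against 5.81%), with a median of -0.30: the pump subunit Tcirg1 rose by 0.70 (SE 0.14, adjusted p = 0.0219), the channel Tpcn1 by 0.65 (SE 0.18, adjusted p = 0.0404) and the tethering factor Vps16 by 0.46 (SE 0.09, adjusted p = 0.0219). Of 19 alternative fits, Tcirg1 passed in 13, Vps16 in 14 and Tpcn1 in 8. With the lncRNA index as covariate none of the 3 passed, at 0.15 for Tcirg1 and 0.25 for Vps16, and Tpcn1 turned to -0.07.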

How the data were processed

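Microglial RNA of 30 mice was sequenced by the authors, who per the study's methods sorted the cells by FACS, made SMARTer and Nextera XT libraries, aligned reads with OSA4 to mm10, and estimated expression with RSEM on Ensembl annotation. The labels' growth protocol describes cultured pup microglia treated with Tau, LPS and ATP, and their extraction protocol also names a TruSeq kit; the methods were followed here. The deposited FPKM values were used as given. The table holds 6 further sample columns, which were not used. The study's methods state that 6 samples were removed for few uniquely mapped read pairs and much duplication. By those methods no male Het sample was removed, while every other group lost some. The sources state a nominal depth common to all samples, but read counts per library are not analysed here, so no count model was run.

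FPKM was divided by a median-of-ratios scale factor per library (11436 genes with a mean of at least 1 FPKM) and converted to log2(value + 0.1), which understates fold changes of low genes. Genes with a mean of at least 0.1 FPKM (16897) were fitted over all 6 groups with limma 3.58.1 (R 4.3.3) with a trended empirical Bayes step, two-sided. Benjamini-Hochberg adjustment covered all genes tested, and 0.05 was the threshold. Fits were run on simulated data with independent noise and, for each gene, the same spread in every group. Shifts of whole libraries and the wider spread of the male Cre+ groups were not simulated. Early libraries are those with a mouse number below 150. This split, the 45 genes, the other lists and the tests were chosen with earlier results of these data known. Groups came from the labels, and p-values cover the spread between mice, pooled over the groups in the fit. The genes given in detail were those with an adjusted p below 0.05 against WT, filled up to 8 by the smallest unadjusted p, with Ctsd and Gla as the highest and lowest, and Bin1, Cx3cr1 and Cst7 as checks. Gene positions and biotypes came from GENCODE M21, promoters from RefSeq. Alternatives were another pseudocount, filter, scaling, weights, samples and covariates.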

Additional observations from a re-analysis of the deposited data

Results flagged for a closer look

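Single libraries far from the rest of their group were looked for in 14 measures (the 8 genes with the smallest unadjusted p against WT, Ctsd, Gla, Cst7, Bin1, Cx3cr1 and the median over the 45 genes) in each of 6 groups, 84 in all. By the gap to the nearest library over the range of the group, 6 stood out, where chance flags about 1 in 20 groups. Idua was 59.8 FPKM in Het-F-0220, against 45.3 to 49.5 in the other female Het libraries. Ctsd was 11043 FPKM in Homo-F-0228, against 9844 to 10144 in the other female Homo libraries. Gla was 1.61 FPKM in WT-F-0192, against 1.78 to 1.80 in the other female WT libraries. The remaining 3 belonged to Het-F-0206: Cst7 at 85.3 FPKM against 35.6 to 47.3 in the other female Het libraries, Bin1 at 42.7 against 151.6 to 164.3, and Cx3cr1 at 13.9 against 1048 to 1243.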

How the results depend on the processing

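With other pseudocounts, filters, scalings, weights, covariates or libraries, the count of 0 of 45 genes stood in each comparison of genotypes and sexes except male Homo against WT. There, limma called 1 gene at a mean FPKM of at least 1 (2.22% of the 45, against 5.53% of all genes tested in that fit), 2 with array weights (4.44% against 5.40%), and 0 to 5 when single libraries were left out (0% to 11.1%, against 0.521% to 8.13%). The male Homo median was 0.0127 among late mouse numbers and 0.0711 with the lncRNA index as covariate, and with that covariate Laptm5 changed sign to 0.0428. With the mouse number range as covariate the female medians were -0.0337 in Homo and -0.0148 in Het. In the early against late comparison the count was 2 with no filter (4.44% of the 45, against 0.446% of all genes), 30 at a mean FPKM of at least 1 (66.7% against 26.7%), 8 with quantile normalization (17.8% against 11.8%) and 34 with array weights (75.6% against 30.2%). It was 0 with the lncRNA index (median 0.0177, and 1 call over all genes) and 0 to 36 with single libraries left out (0% to 80.0%, against 0.00592% to 28.6%). The lncRNA covariate and the alternatives of the early against late comparison were chosen after seeing the data, and in that comparison the covariate nearly followed mouse number. The cause of these shifts was not tested. No paired analysis was run. The study describes the WT mice as littermates of the Cre+ mice, but the sample titles give mouse numbers and no litter. Read counts per library are not analysed here, which leaves counting error without a value, and with 4 to 6 mice per group the intervals of single genes were wide.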
